A study of Rattus norvegicus with 12 samples.

Results

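Pnpla3, which encodes patatin-like phospholipase domain containing 3 (also called adiponutrin), was followed in the epididymal fat pad of 12 male Sprague-Dawley rats. It is 1 of 14506 named genes on the array and was read by 1 probe set, 10898203, which the platform annotation ties to Entrez gene 362972. The gene was chosen from these same arrays because its level fell so far in fasting, so its levels, differences and ranks are given as a description, with no test. One Affymetrix Rat Gene 1.0 ST array was run per rat, and each array measured RNA and not the protein. The groups were 4 fed rats (Fed), 4 rats fasted until phase 2 (P2) and 4 rats fasted until phase 3 (P3). In P2 the body lives mainly on fat and spares protein, and in P3 protein breakdown rises. All 3 groups were of 1 strain and 1 sex, no rat carried a named mutation or drug treatment, and the labels give neither the age of the rats nor the hours of fasting.

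PNPLA3 sits on the surface of lipid droplets in fat cells and hepatocytes. It shares its patatin domain with PNPLA2 (adipose triglyceride lipase, ATGL), the enzyme that starts triglyceride breakdown, but its own lipase activity is weak. Hydrolysis of triglyceride and of retinyl esters and an acyl transfer to lysophosphatidic acid have been described for it. In liver and fat its gene is known to follow feeding, insulin and glucose through the transcription factors SREBP-1c (Srebf1) and ChREBP (Mlxipl), as the genes of fatty acid synthesis do.

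The stretch upstream of the gene is shown because those factors act through promoters. It is the RefSeq sequence of build GRCr8, plus strand, chr7:117173278-117173484, which is the 207 bases that lie before the first base of the annotated gene. Capitals mark matches to CCAAT (the NF-Y box, read here on the other strand as ATTGG) and to TGACGTCA (the cAMP response element).

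Pnpla3: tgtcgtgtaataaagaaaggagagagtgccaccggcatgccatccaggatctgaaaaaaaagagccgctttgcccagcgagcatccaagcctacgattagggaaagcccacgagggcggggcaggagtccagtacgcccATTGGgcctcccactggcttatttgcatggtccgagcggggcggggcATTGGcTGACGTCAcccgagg

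The search ran on both strands of the 300-base window from 250 bases before to 50 bases after the start site of the RefSeq promoter table, which lies inside the annotated gene. It found 2 NF-Y boxes, which begin 111 and 64 bases before that start site, and 1 cAMP response element, which begins 58 bases before it and does not overlap the box beside it. Of 33469 rat promoters of that length, 37.5% held at least 1 NF-Y box, 11.2% held 2 or more, and 1.83% held the cAMP response element. The cAMP response element was added to the search after the sequence had been read. The window held no E-box CACGTG, the motif of ChREBP and USF (6.42% of promoters hold it), and no sterol regulatory element written as TCACNCCAC (1.12%), which says only that these letters are not in this window.

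In fed rats Pnpla3 was at log2 levels of 11.31, 11.49, 11.32 and 11.62 in rats 1 to 4. In P2 rats it was at 6.2, 6.27, 6.12 and 6.08. In P3 rats it was at 6.15, 6.07, 5.98 and 6.02. The 4 fed rats were high and all 8 fasted rats were low, with an empty interval of 5.04 log2 units between the lowest fed and the highest fasted rat. The 8 fasted rats together spanned 0.296 log2 units, about as much as the 4 fed rats alone (0.312).

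**Figure D1:**
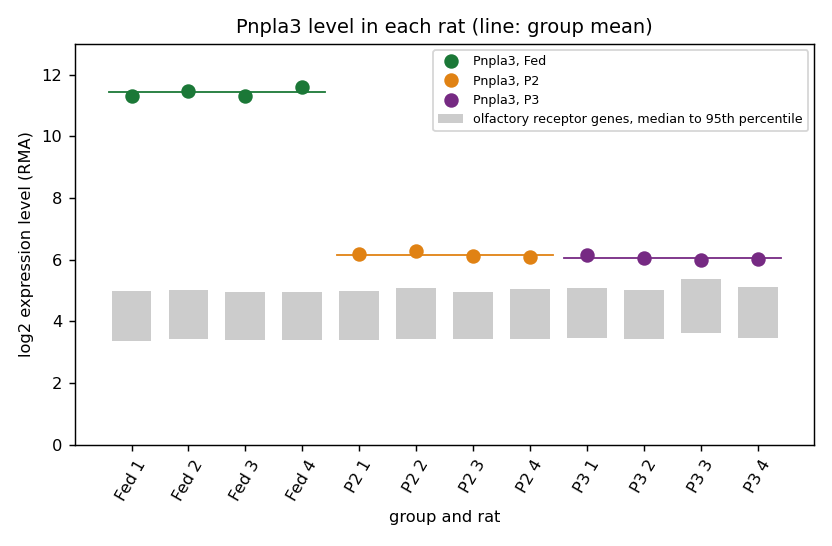
Log2 level of Pnpla3 (vertical axis) in each of the 12 rats (horizontal axis), with a line at each group mean and a grey bar from the median to the 95th percentile of 1105 olfactory receptor genes on the same array. The 4 fed rats lie between 11.31 and 11.62 and the 8 fasted rats between 5.98 and 6.27, above the grey bars.

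The group means were 11.43 ± 0.149 in Fed, 6.17 ± 0.0852 in P2 and 6.05 ± 0.0764 in P3 (SD, n = 4). P2 differed from Fed by -5.27 ± 0.0865 (SE of the limma fit, with a 95% interval of the difference from -5.45 to -5.08). This is 38.5-fold on a linear scale and leaves 2.6% of the fed signal. P3 differed from Fed by -5.38 ± 0.0865 (-5.57 to -5.19), which is 41.6-fold and leaves 2.4%. The order of the groups was Fed, P2, P3. The last neighbours in that order overlapped, since P3 rat 1 lay above P2 rats 3 and 4, and they differed by -0.11 ± 0.0865, with an interval from -0.3 to 0.07. Both fasted groups share the fed rats as their reference, so their differences from Fed are not independent of each other.

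Pnpla3 varied little within a group. Its standard deviation around the 3 group means was 0.108, against a median of 0.151 over all genes, and 20.7% of genes had a smaller one. The number of arrays limits this precision.

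The fasted signal stayed above most olfactory receptor genes, a family not known for a role in fat. On each array 1105 olfactory receptor genes, which serve smell in the nose, had a median between 3.37 and 3.62 and a 95th percentile between 4.94 and 5.37. None of them lay above Pnpla3 in any fed rat. In P2 rats 7 to 9 of the 1105 lay above it, and in P3 rats 8 to 23. The background of the Pnpla3 probe set itself was not measured, detection calls were not used, and probe sets differ in brightness, so the folds may understate the fall and are not exact.

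Placed among all 14506 genes of its own array, Pnpla3 went from the top to the lower middle. It ranked 280th, 216th, 269th and 187th from the top in fed rats 1 to 4, which is between the 98.1th and the 98.7th percentile. In P2 rats it lay between the 39.1th and the 41.9th percentile, and in P3 rats between the 37.4th and the 41.5th. These positions mix RNA abundance with the brightness of each probe set, so only their shift between rats is informative.

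By the size of its fall Pnpla3 was 2nd of 14506 genes in P2 against Fed and 6th in P3 against Fed, and it held the same places (2 and 6) among all 29215 probe sets. In P2 the gene above it was Oxtr, the oxytocin receptor, at -5.27 ± 0.114, and the next below were Scd, the stearoyl-CoA desaturase (-5.20 ± 0.217), Fasn, the fatty acid synthase (-4.48 ± 0.162), and Lep, which encodes the hormone leptin (-4.12 ± 0.308). In P3 the 3 genes just above were the imprinted gene Mest (-5.49 ± 0.215), Fasn (-5.43 ± 0.162) and Sucnr1, the succinate receptor (-5.39 ± 0.141). The 3 just below were Oxtr (-5.21 ± 0.114), Scd (-4.56 ± 0.217) and Slc36a2, a proton-coupled amino acid transporter (-4.39 ± 0.258). Oxtr and Scd in P2, and Mest, Fasn, Sucnr1 and Oxtr in P3, lay closer to Pnpla3 than the sum of both standard errors, whereas Fasn and Lep in P2 and Scd and Slc36a2 in P3 lay further off. That sum is a rough yardstick and not a test, since all genes were read in the same rats. The median of all genes was 0.00722 in P2 and 0.0527 in P3, and their first percentile was -1.26 and -2.09. By the empty interval between the lowest fed and the highest fasted rat, Pnpla3 was 1st of all genes, followed by Oxtr (4.81), Scd (4.19), Fasn (3.78) and Lep (2.92). Such an interval above 0 was found for 14% of genes.

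**Figure D2:**
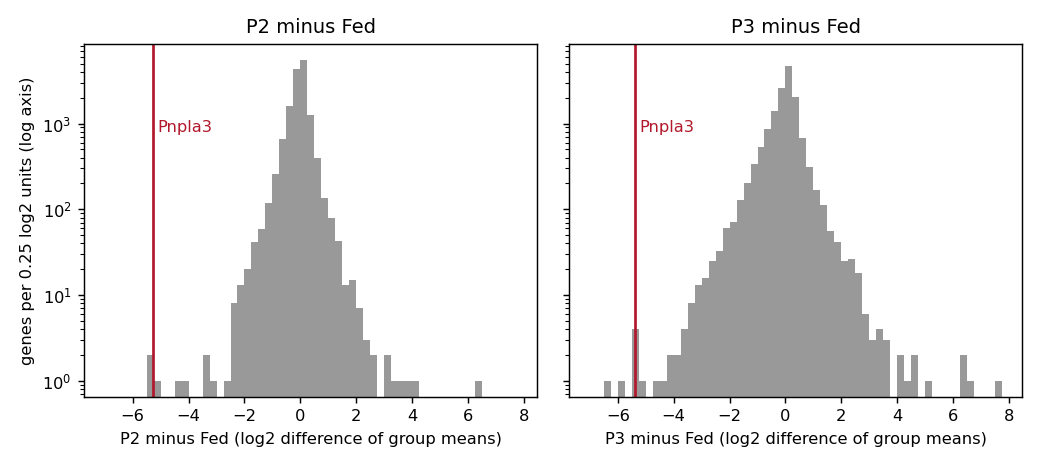
Histograms of the log2 difference of group means for all 14506 genes, P2 minus Fed on the left and P3 minus Fed on the right, with the number of genes per bin on a log axis. The red lines mark Pnpla3 at -5.27 and -5.38, in the far left tail of both.

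The genes with the most similar pattern were found by setting each gene to its own fed mean and taking the root mean square difference from Pnpla3 over the 12 arrays. Oxtr was nearest, at 0.21 log2 units, then Fasn (0.51) and Scd (0.59), and no other gene lay under 1. Lep (1.02), Mest (1.1), Me1, the cytosolic malic enzyme that makes NADPH (1.52), Nnat, an imprinted proteolipid gene (1.78), and Pygl, a glycogen phosphorylase (1.88), completed the nearest 8. The median over all genes was 4.38. Oxtr had levels of 10.68, 10.65, 10.73 and 10.89 in fed rats, 5.29, 5.43, 5.46 and 5.70 in P2 rats, and 5.48, 5.45, 5.84 and 5.34 in P3 rats. Like Pnpla3 it was at 1 high level in every fed rat and at 1 low level in every fasted rat, with the P2 and P3 ranges overlapping. The fasted levels of Oxtr lay close above the 95th percentile of the olfactory receptor genes, which was 4.96 to 5.37 in fasted rats. How far background signal sets the likeness of P2 and P3 was not tested for Oxtr or Pnpla3.

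The nearest genes parted from Pnpla3 between P2 and P3, where Pnpla3 differed by -0.11 and Oxtr by 0.06 ± 0.114. Fasn differed by -0.95 ± 0.162, Me1 by -0.87 ± 0.193, Pygl by -1.45 ± 0.268, Mest by -2.05 ± 0.215, Lep by -2.28 ± 0.308 and Nnat by -3.58 ± 0.275, so that their P3 rats lay lower still. Scd differed by 0.63 ± 0.217, with P2 rats between 7.16 and 8.55 and P3 rats between 8.16 and 8.72, so that the groups overlapped. Without P2 rat 2, the lowest, the Scd difference was 0.39. These genes were picked for their likeness to Pnpla3 on these arrays, so no test of them is given here.

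**Figure D3:**
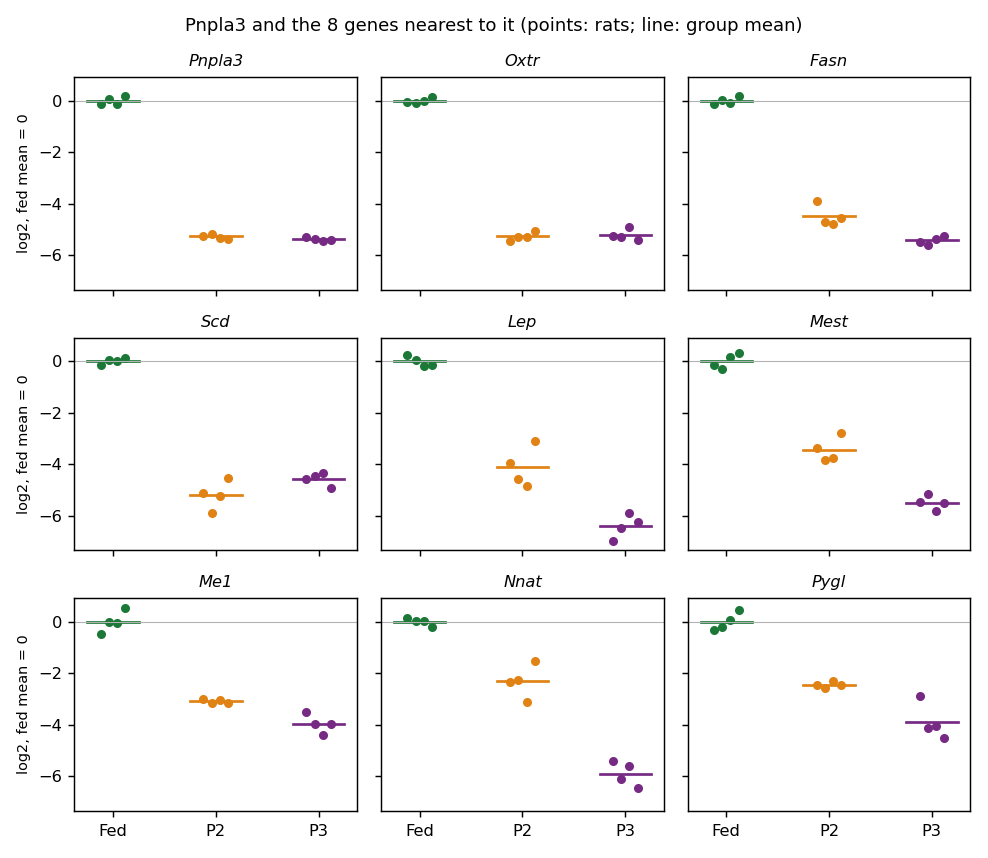
Log2 level relative to the fed mean (vertical axis) in Fed, P2 and P3 rats (horizontal axis) for Pnpla3 and the 8 genes nearest to it, with a point per rat and a line at each group mean. Pnpla3 and Oxtr are at the same low level in P2 and P3, whereas Mest, Lep and Nnat differ by -2.05, -2.28 and -3.58 between P2 and P3.

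Pearson's r over the 12 arrays, which ignores the size of a change, gave other names. Oxtr again came first (r = 0.997), followed by Msmo1 and Idi1 (both 0.991), Kpnb1 and Nsdhl (both 0.989). Msmo1, Idi1 and Nsdhl are enzymes of cholesterol synthesis, and Kpnb1 encodes the nuclear import receptor importin beta. Fasn had an r of 0.985 and Scd of 0.981. These r values are set almost wholly by the distance between fed and fasted rats, and all 12 arrays share them, so they describe the pattern and are given without a p. Idi1 changed by -2.12 ± 0.105 in P2 and -2.25 ± 0.105 in P3, and Kpnb1 by only -0.64 ± 0.0672 and -0.69 ± 0.0672, so a like shape went with a far smaller fall.

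The rest of this account gives genes related to Pnpla3 by family, place or function. They were tested with limma in 1 fit over the 12 arrays, with Benjamini-Hochberg adjustment over all 14506 genes and a call at an adjusted p below 0.05. In P2 against Fed 25.2% of all genes were called (15.5% lower and 9.66% higher), in P3 against Fed 45.4% (24.3% and 21.1%) and in P3 against P2 27.9% (15.1% and 12.8%). The share of calls that were higher depended on the scaling, going from 38.4% to 53% in P2 against Fed, from 46.5% to 69.6% in P3 against Fed and from 45.8% to 64.9% in P3 against P2 when each array was centred on its median, which moved the median of all genes in P3 against Fed from 0.053 to 0.208. Counts of calls below are read against these shares. The gene lists were set when earlier results of these arrays were already known. The p-values and counts therefore describe these arrays and are not independent evidence.

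Of the other members of the patatin-like family, 2 had a probe set of their own, Pnpla2 and Pnpla5, and neither was called lower than Fed. Pnpla2 was at 12.24, 12.22, 12.27 and 12.21 in fed rats, at 12.80, 12.74, 12.77 and 12.78 in P2 rats, and at 12.56, 12.26, 12.10 and 12.18 in P3 rats. All P2 rats lay above all fed rats, whereas P3 rats overlapped the fed ones and rat 1 was the highest of them. Pnpla2 rose by 0.53 ± 0.0897 in P2 (adjusted p = 0.000588, limma) and differed by -0.49 ± 0.0897 between P2 and P3, where it was lower in P3 (adjusted p = 0.000881). Its P3 level differed from Fed by 0.04 ± 0.0897 (adjusted p = 0.744, 95% interval -0.15 to 0.23). Pnpla5, the next gene to Pnpla3 on the chromosome and a close relative, had fed, P2 and P3 means of 4.87 ± 0.264, 4.94 ± 0.182 and 5.03 ± 0.315 (SD, n = 4). It differed from Fed by 0.07 ± 0.16 in P2 (adjusted p = 0.812) and 0.17 ± 0.16 in P3 (adjusted p = 0.415), at levels near the 95th percentile of the olfactory receptor genes. Pnpla1, Pnpla4, Pnpla6, Pnpla7 and Pnpla8 were not analysed here.

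Genes around Pnpla3 on rat chromosome 7 were measured next. Of the 5 protein-coding genes on each side in the RefSeq order, 7 had a probe set of their own, and in each fasted group 1 was called lower than Fed and 1 higher. Samm50, the neighbour on the far side from Pnpla5, encodes a subunit of the sorting and assembly machinery of the outer mitochondrial membrane. It was at 9.25, 9.16, 9.34 and 9.37 in fed rats, at 8.73, 8.71, 9.0 and 8.97 in P2 rats, and at 8.76, 8.57, 8.49 and 8.50 in P3 rats. Every fasted rat was below every fed rat, and the falls were of 0.43 ± 0.0946 in P2 (a difference of -0.43, adjusted p = 0.00416) and 0.70 ± 0.0946 in P3 (a difference of -0.70, adjusted p = 2.8e-05, limma).

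Parvb, the next gene, encodes the focal adhesion protein beta-parvin and rose by 0.36 ± 0.0843 in P2 (adjusted p = 0.00593). Its rise of 0.25 ± 0.0843 in P3 (adjusted p = 0.0276) ended in 6 alternatives, without Fed rat 2, 3 or 4 or P3 rat 2 or 4 and with the replicate block (adjusted p between 0.0511 and 0.0737). Scube1, Mpped1, Sult4a1 and Parvg differed from Fed by 0.05 to 0.26 in either fasted group and were not called. With arrays centred on their medians Scube1 and Sult4a1 passed as higher in P3, as Sult4a1 did without P3 rat 2 (adjusted p between 0.00586 and 0.0406).

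**Figure D4:**
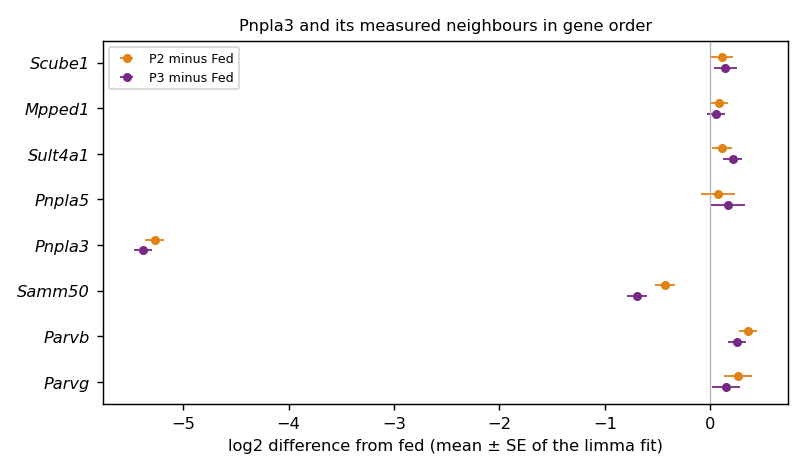
Log2 difference from Fed (horizontal axis, mean ± SE of the limma fit) in P2 and P3 for Pnpla3 and its 7 measured neighbours, listed in gene order. Pnpla3 lies beyond -5, Samm50 at -0.43 and -0.70, and the other 6 between 0.05 and 0.36. Pnpla5, Scube1, Mpped1 and Sult4a1 were already dim in fed rats (means of 4.87 to 5.5), so a fall could hardly show.

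Genes that work beside Pnpla3 on the droplet were called in both directions. Of 17 measured lipases, cofactors and droplet coat genes, 1 was called lower and 5 higher in P2, with a median of 0.15 against 0.01 for all genes. In P3 8 were lower and 3 higher, with a median of -0.31 against 0.05. The count of lower genes in P2 went to 2 when Fed rat 2 or P2 rat 1 was left out, with the replicate block and once dim genes were removed, and to 3 without P2 rat 3. The count of higher genes in P3 went to 5 with centred arrays, with the replicate block and without P3 rat 1.

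Abhd5 encodes CGI-58, the coactivator of PNPLA2, which PNPLA3 is known to bind. It differed from Fed by 0.45 ± 0.145 in P2 (adjusted p = 0.0356, limma), a call that ended when any 1 Fed or P2 rat was left out (adjusted p between 0.0554 and 0.0869). In P3 it differed by -0.31 ± 0.145 (adjusted p = 0.1, and 0.000596 without P3 rat 1). G0s2, the inhibitor of PNPLA2, fell by 0.85 ± 0.135 in P2 (a difference of -0.85, adjusted p = 0.000395) and by 3.62 ± 0.135 in P3 (a difference of -3.62, adjusted p = 2.21e-10). Cidec, which fuses droplets, differed by 0.18 ± 0.146 in P2 (adjusted p = 0.443) and fell in P3, at -1.63 ± 0.146 (adjusted p = 5.79e-07). Hsd17b11, a droplet-bound dehydrogenase, rose by 0.72 ± 0.086 and 1.24 ± 0.086 (adjusted p = 4.24e-05 and 4.36e-08). In P2 rats, where Pnpla3 was 38.5-fold lower, Cidec, Lipe (0.13), Mgll (0.15) and Plin1 (-0.13 ± 0.312) were not called. The SE of Plin1 is wide because its SD was 0.928 in P3, against 0.032 in Fed and 0.0236 in P2. Plin5 (0.44, adjusted p = 0.0101, limma) and Hsd17b13 (0.39, adjusted p = 0.00774) were called higher in P2.

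**Figure D5:**
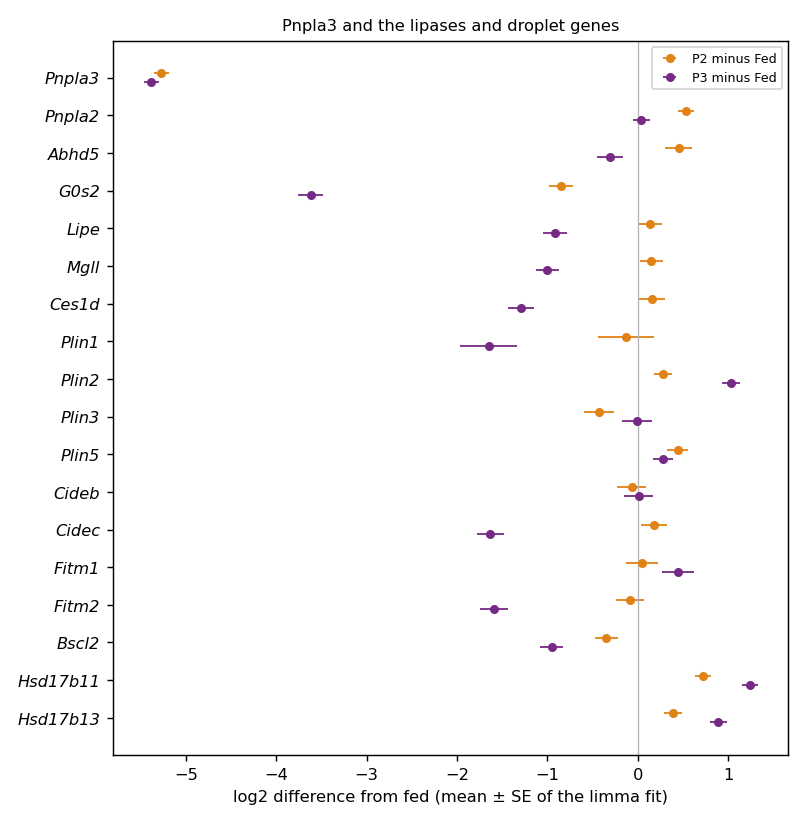
Log2 difference from Fed (horizontal axis, mean ± SE of the limma fit) in P2 and P3 for Pnpla3 and 17 lipases, cofactors and droplet genes. Pnpla3 is at -5.27 and -5.38 and G0s2 at -0.85 and -3.62, and the remaining 16 lie between -1.65 and 1.24.

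Among the transcription factors and cofactors known to drive or restrain the lipogenic genes, Srebf1 was not analysed here, since its probe set is shared with another gene. Of the 17 measured regulators, 3 were called lower and 2 higher in P2, and 4 and 3 in P3. The medians were 0.01 and 0.02, against 0.01 and 0.05 for all genes. The lower count in P2 went to 5 without the dimmest genes. The higher count in P2 went to 1 without Fed rat 1, 3 or 4 or P2 rat 1 or 2. That in P3 went to 1 without Fed rat 1, 3 or 4, to 6 with quantile normalisation again and to 8 with centred arrays.

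Mlxipl, which encodes ChREBP, was at 8.72, 8.94, 9.04 and 9.03 in fed rats, 7.49, 7.53, 7.42 and 7.79 in P2 rats, and 7.34, 6.73, 6.87 and 6.76 in P3 rats. All fasted rats lay below all fed rats and all P3 rats below all P2 rats. It changed by -1.37 ± 0.132 in P2 (adjusted p = 5.94e-06, limma), by -2.01 ± 0.132 in P3 (adjusted p = 2.56e-08) and by -0.63 ± 0.132 from P2 to P3 (adjusted p = 0.00243). Srebf2, the sterol-responsive relative of Srebf1, changed by -0.80 ± 0.0749 and -0.66 ± 0.0749 (adjusted p = 4.7e-06 and 5.88e-06). Scap, the escort protein of both SREBPs, fell in P3 by 0.34 ± 0.0691 (a difference of -0.34, adjusted p = 0.000894).

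Insig1, an SREBP target that retains SCAP in the endoplasmic reticulum, was at 12.19, 12.40, 12.23 and 12.20 in fed rats, 11.40, 11.58, 11.58 and 11.77 in P2 rats, and 12.57, 12.47, 12.37 and 12.43 in P3 rats. Its P2 rats were low and its P3 rats were back at or above the fed range, whereas all 8 fasted rats were low for Pnpla3. It changed by -0.67 ± 0.0893 in P2 (adjusted p = 9.67e-05) and by 0.88 ± 0.0893 from P2 to P3 (adjusted p = 7.15e-06, limma). From Fed to P3 it differed by 0.21 ± 0.0893 (adjusted p = 0.0723, ranging from 0.00452 to 0.162 when the settings were varied). That difference passed with quantile normalisation again, with centred arrays, with an intensity trend and robust prior, and without Fed rat 2. Nr1h3, which encodes the oxysterol receptor LXR alpha, rose by 0.95 ± 0.16 in P2 (adjusted p = 0.000585). In P3 it differed from Fed by 0.43 ± 0.16 (adjusted p = 0.0401, limma), a call that ended in 8 alternatives. From P2 to P3 it changed by -0.52 ± 0.16 (adjusted p = 0.0249, limma), a call that ended in 7. Nfya and Nfyb, subunits of the factor that binds the CCAAT box, differed from Fed by 0.00 and 0.05 in P2 and by 0.02 and 0.07 in P3, and were not called. Nfyc, the other subunit, differed by -0.18 ± 0.0861 in P2 (adjusted p = 0.16, limma) and was called lower in P3, at -0.27 ± 0.0861 (adjusted p = 0.0197). The P3 call of Nfyc ended with quantile normalisation again, with centred arrays and without Fed rat 2 (adjusted p = 0.0708, 0.274 and 0.0624).

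The 15 enzymes and cofactors of fatty acid synthesis mostly fell with Pnpla3, 13 lower and 1 higher in P2 and 12 lower and 1 higher in P3. Their medians were -1.29 in P2 and -1.22 in P3. The 1 called higher was Aacs, at 0.84 ± 0.162 in P2 and 1.32 ± 0.162 in P3 (adjusted p = 0.00159 and 1.14e-05, limma). Scd2 was lower in P2 (-1.56 ± 0.243) and was not called in P3 (-0.39 ± 0.243, adjusted p = 0.214, limma). Fasn, Scd and Me1, picked above for their likeness to Pnpla3, are among those counted as lower in both groups. For these genes the counts only repeat that choice. Scd came nearest to Pnpla3 in P2, at -5.20 ± 0.217 against -5.27 ± 0.0865, and without P2 rat 4 it lay beyond it (-5.42 against -5.24). Acly, ATP citrate lyase, which makes cytosolic acetyl-CoA, changed by -2.29 ± 0.131 in P2 and -1.82 ± 0.131 in P3 (adjusted p = 6.77e-08 and 6.34e-08, limma), and Me1 by -3.09 ± 0.193 and -3.96 ± 0.193. Thrsp (Spot 14), a protein of lipogenic tissue, changed by only -0.35 and -0.33 (adjusted p = 0.00515 and 0.00323, limma, with the P3 call ending at 0.0588 under centred arrays). In P3 Fasn came nearest, at -5.43 ± 0.162 against -5.38 ± 0.0865.

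Of 15 acyltransferases and lipins that build triglyceride, 6 were lower and 2 higher in P2, and 10 and 3 in P3, with medians of -0.18 and -0.72. Dgat2, which adds the last acyl chain, changed by -2.05 ± 0.207 and -2.36 ± 0.207 (adjusted p = 9.63e-06 and 4.6e-07), the largest falls of the list. Gpam, the mitochondrial glycerol-phosphate acyltransferase, changed by -0.98 ± 0.136 and -2.02 ± 0.136, Gpat3 by -0.10 ± 0.114 (not called) and -1.71 ± 0.114, and Mogat2 by -0.70 ± 0.156 and -0.72 ± 0.156. The higher count in P2, Gpat4 and Lpin1, went to 0 without Fed rat 3 or 4 or P2 rat 1 or 4. It went to 1 with the replicate block and without Fed rat 1 or 2, P2 rat 2 or 3 or P3 rat 1 or 4. The higher count in P3 went to 5 with centred arrays.

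Of 13 genes that bind, store or oxidise retinoids, 4 were lower and 3 higher in P2, and 7 and 2 in P3. Rbp4, the plasma retinol carrier that fat also secretes, changed by -1.01 ± 0.168 and -3.36 ± 0.168 (adjusted p = 0.000567 and 2.25e-09, limma). Aldh1a2 (-0.62 and -1.99) and Rdh11 (-0.42 and -1.37), which oxidise retinal and reduce it, also fell in both, and Cyp26b1, which degrades retinoic acid, rose by 1.48 and 1.16. The higher count in P3 went to 1 without the dimmest genes.

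Adipocyte markers were held beside Pnpla3. Of 12 measured markers 0 were called lower in P2 (limma, and 0 at an unadjusted p under 0.05) and 3 were called higher, while 2 were lower in a fit of only these groups and 1 without P3 rat 1. Their mean log2 level was between 11.93 and 11.99 in fed rats and between 12.1 and 12.18 in P2 rats. In P3 10 were lower and 1 higher, with a median of -1.22. P3 rat 1 stood at 11.45 and the other P3 rats at 10.83, 10.81 and 10.57. Without P3 rat 1 the Pnpla3 difference from Fed was -5.41. In whole tissue, fewer fat cells and less RNA per fat cell cannot be told apart.

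Because Pnpla3 is also expressed in liver and the labels' extraction protocol names liver while all others name white adipose tissue, 14 hepatocyte markers were measured. Between 8 and 9 of them lay below the 95th percentile of the olfactory receptor genes on every array, among them Ttr, Fga, Fgb, Tat and Cps1, which had group means of 4.19 or less. The mean over the list was 5.29 to 5.37 in Fed, 5.19 to 5.43 in P2 and 5.12 to 5.21 in P3. Albumin, Alb, was between 7.70 and 8.86 in fed rats, 8.27 and 10.78 in P2 rats and 5.20 and 8.34 in P3 rats, and its ranges overlapped between Fed and each fasted group. Of the 14 markers 2 were called lower and 0 higher in P2 (limma, with 1 higher at an unadjusted p under 0.05, and 1 called higher in a fit of only these groups). In P3 3 were lower and 1 higher, and the higher count ranged from 0 to 6 over the alternatives, with 6 under centred arrays. The 2 lower in P2 were Apoc3, an apolipoprotein gene (-1.33 ± 0.184, adjusted p = 0.000137), and Tf, which encodes transferrin (-0.50 ± 0.119, adjusted p = 0.00618). Tf was the brightest of the list, with mean levels of 11.12 in Fed, 10.62 in P2 and 10.18 in P3. Apoc3 had mean levels of 7.17, 5.84 and 6.47 in the same order. In P3 Apoc3 was at -0.69 and Tf at -0.94, both called, and Alb at -1.59 (adjusted p = 0.0423), a call that ended in 10 alternatives (adjusted p between 0.0514 and 0.137), among them without Fed rat 1, 3 or 4, P2 rat 1 or 4 or P3 rat 3 or 4. The part of these markers in the Pnpla3 result was not tested.

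Markers of other cell types were counted as well, and their part in the result was not tested. Of 7 epididymis markers 0 were called in P2. In P3 0 were lower and 1 was higher, a count that ranged from 0 to 3 over the alternatives. Their medians were 0.01 in P2 and 0.05 in P3, the same as for all genes. Smooth muscle markers were higher in 7 of 7 cases in both fasted groups (medians 1.25 and 1.16), with list means of 8.17 to 8.82 in Fed, 9.28 to 10.13 in P2 and 9.3 to 9.95 in P3. In P2 and P3 respectively, endothelial markers were higher in 6 and 5 of 9, and mesothelial markers lower in 5 and 4 of 6. Fibroblast and progenitor markers were lower in 4 and 9 of 11 and higher in 1 and 2, in the same order. Those called higher were Pdgfrb in P2 (0.76) and P3 (0.71), and Dcn in P3 (0.42). The lower fibroblast count in P2 went to 7 in a fit of only these groups and without P3 rat 3. Macrophage markers were lower in 1 and 4 of 12 and higher in 1 and 3, and these counts moved with the settings. The 4 lower in P3 went to 1 with quantile normalisation again, with centred arrays and without Fed rat 1 or 2 or P3 rat 1, and to 2 in a fit of only these groups and without Fed rat 3 or P3 rat 4. The 1 lower in P2 went to 0 without P2 rat 1 and to 2 in a fit of only these groups, and with centred arrays the higher counts were 2 in P2 and 5 in P3.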

How the data were processed

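RNA from epididymal fat of 12 rats was hybridised to 12 arrays, 1 per rat. The authors deposited log2 values made with RMA, and the submitters' processing notes also name GCOS and Affymetrix Expression Console 1.1; detection calls were not used. Of 29215 probe sets, 15310 named 1 gene, 323 several and 13582 none in the platform annotation. A gene read by several probe sets (527 genes) was given its brightest on average, which left 14506 genes, of which 14481 matched RefSeq by Entrez ID. Groups and rat numbers came from the sample titles.

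Differences were fitted with limma 3.58.1 in R 4.3.3 (lmFit and eBayes, 3 groups, no covariate), with Benjamini-Hochberg adjustment over all 14506 genes, and the scripts were tested on simulated data. Tables and plots used Python 3.11.15, pandas 2.3.3 and matplotlib 3.10.9. Precision is limited by there being 4 arrays a group. The p-values set each difference against the spread between rats, estimated over all 3 groups and drawn by eBayes towards that of all genes. Pnpla3 and all gene lists were chosen with earlier results of these data known. Genes named are the Pnpla family, 5 neighbours a side, the 8 nearest genes by root mean square difference and 5 by r, 3 rank places each side, up to 3 called members of each function list per comparison, and a fixed set of regulators and lipid genes. Thrsp, Aacs, Scd2, Gpat4, Lpin1, Nfya, Nfyb, Nfyc, Lipe, Mgll, Plin1, Plin5, Hsd17b13, Pdgfrb, Dcn and single hepatocyte markers fall outside that rule. These were chosen after their values were seen. Alternatives were quantile normalisation again, cyclic loess, arrays centred on their medians, a replicate block, only the groups compared, an intensity trend with robust prior, no dim genes (the lowest 40%), the mean of probe sets, and each rat left out.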

Additional observations from a re-analysis of the deposited data

Results flagged for a closer look

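None of the 3 Pnpla3 groups held a rat that stood apart. Over 42 genes, 126 groups of 4 rats were tested for a rat far from the others relative to the range of its group (Dixon's ratio), and 7 were found, where chance gives about 1 in 20.

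Pnpla5 was at 5.26 in Fed rat 4, with the nearest other fed rat at 4.76, and at 5.50 in P3 rat 3, with the nearest at 4.91. Parvb was at 7.48 in Fed rat 1, against 7.27. Hsd17b11 was at 9.71 in Fed rat 4, below the nearest at 9.98, and Scap at 7.68 in P2 rat 2, below 7.77. P3 rat 1 was the highest P3 rat for Gpam, at 10.02 against 9.48, and for Nr1h3, at 10.52 against 9.80.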

How the results depend on the processing

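Pnpla3 remained lower in both fasted groups under all 20 alternatives. With 1 rat left out at a time its difference from Fed ran from -5.31 to -5.21 in P2 and from -5.42 to -5.32 in P3, and P3 minus P2 ran from -0.15 to -0.08. With arrays centred on their medians the differences were -5.20, -5.22 and -0.02. Its place among the falls was 1 to 3 in P2 and 4 to 6 in P3. Rats of 1 number did not deviate together in every pair (r from -0.155 to 0.188), so the numbers are not taken as pairs. With the replicate block Pnpla3 differed by -5.27, -5.38 and -0.11, and 3539, 6526 and 3995 genes were called in P2 against Fed, P3 against Fed and P3 against P2, against 3649, 6589 and 4046 without it. With centred arrays 6115 genes were called higher in P3 than in Fed and 3115 higher in P3 than in P2, against 3066 and 1853. With 1 rat left out the lower calls ran from 1828 to 2470, 3240 to 3501 and 1872 to 2190, and the higher calls from 1001 to 1664, 2661 to 3175 and 1432 to 1946, in the same order of comparisons. Of 2445 values for 41 named genes, 2378 kept their call or lack of one, 55 lost the call and 12 gained it. Among values called in either setting 0 changed direction. Changes of sign in values called in neither setting were not counted. The cause of these changes was not tested. The background of single probe sets, and so the true size of the largest falls, is not known.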
